A study of Mus musculus with 5 samples.

Results

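The long-arm transfer RNAs (tRNAs) of mouse germ cells and whole testis were examined in 5 libraries of medium-length RNA. A tRNA was counted as long-arm when its name in the deposited tables gave serine, leucine with an anticodon other than CAA, or selenocysteine. The tables held 28 such names among 228 tRNA names and 1042 names of any kind. There were 14 serine names, 12 leucine names and 2 selenocysteine names, with 9 anticodons between them. Leucine CAA was left out because its genes carry an intron. All material came from C57BL/6J mice at postnatal day 7. Whole-testis RNA, 600 ng a library, was left untreated, treated with 25 U of TAP for 1.5 h, or treated with 20 U of 5' polyphosphatase for 30 min, and each treatment has 1 library. TAP is named tobacco alkaline phosphatase in the labels, and the study used it to turn a cap or triphosphate at the 5' end into a monophosphate. 5' polyphosphatase removes phosphates from a 5' triphosphate and leaves caps. The germ cells were FACS-purified spermatogonia, with 2 replicates. Their RNA, 500 ng a library, was incubated for 1 h with RppH (25 U), a pyrophosphohydrolase that also turns caps and triphosphates into monophosphates. The study calls the replicates biological, and neither it nor the labels say whether they came from separate animals. Testis and spermatogonia libraries differ in tissue, enzyme and library kit at the same time, so these cannot be told apart. The tables hold no mRNA names, so the markers that define spermatogonia were not checked here.

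Serine, leucine and selenocysteine tRNAs are the class II tRNAs, in which an extra stem, the long variable arm, lies between the anticodon stem and the T stem. Seryl-tRNA synthetase recognises its tRNAs mainly through that arm. Selenocysteine tRNA is first charged with serine by the same enzyme, then converted, and it reads UGA as selenocysteine in selenoprotein mRNAs. RNA polymerase III makes all of them. The primary transcript of an ordinary tRNA starts with a 5' triphosphate upstream of the mature end, and RNase P cuts this leader off to leave a 5' monophosphate, while the 3' end of the primary transcript lies in a run of T. Vertebrate selenocysteine tRNA is transcribed from its own first base and keeps the triphosphate. A 5' adaptor is ligated only to a monophosphate, so an untreated library holds mainly RNAs that already carry one.

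The RefSeq annotation (GRCm38.p6) gave the gene lengths. Its 21 leucine genes other than CAA span 82 to 83 bases, and 21 of its 22 serine genes have 82 or 83 bases, against a median of 72 bases over 355 tRNA genes of the other amino acids. All are shorter than the insert range of 115 to 255 nt given in the labels. The tables give no read length, so the ends of the RNAs behind the counts are not known. Of the 28 names, 18 could be linked to a single RefSeq gene by chromosome and anticodon, 7 had several candidates and 3 had none. Sequence was at hand for serine genes alone, in the GENCODE transcripts (GRCm38). They are shown because they hold the long arm itself and the bases after the mature end that a primary transcript would add. Capitals mark the anticodon, the variable arm and the first run of at least 4 T after the gene.
n-TSaga9, serine AGA, chr4:10874064-10874170, plus strand, linked to tRNA_chr4.trna16-SerAGA: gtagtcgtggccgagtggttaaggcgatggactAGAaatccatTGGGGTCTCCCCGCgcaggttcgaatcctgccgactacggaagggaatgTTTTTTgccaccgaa
n-TStga1, serine TGA, chr13:23518146-23518250, plus strand: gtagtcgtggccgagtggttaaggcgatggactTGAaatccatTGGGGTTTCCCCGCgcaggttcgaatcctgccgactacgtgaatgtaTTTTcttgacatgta
n-TStga2, serine TGA, chr13:21924928-21925016, minus strand: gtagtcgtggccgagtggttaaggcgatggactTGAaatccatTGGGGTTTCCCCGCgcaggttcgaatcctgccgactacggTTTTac

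The variable arm is 14 bases long in each of these genes. The 82-base bodies of n-TStga1 and n-TStga2 are identical, so counts under tRNA_chr13.trna984-SerTGA cannot be given to either gene. The serine AGA body differs from them at 2 of 82 bases. From the first base of the tRNA to the end of the T run there are 98 bases in n-TSaga9, 94 in n-TStga1 and 87 in n-TStga2. Counting by name can exchange reads between copies this alike, and sums over an anticodon or an amino acid are therefore firmer than the values of single names.

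The testis libraries held 2712840 to 3307056 sequenced reads and 1067851 to 1160933 reads listed under a name, and the spermatogonia libraries 5209661 to 6426081 and 1993087 to 3166394. Levels are given as RPM, the reads in 1000000 reads of 5.8S rRNA, the reference the study used, and, where it matters, per listed read. The share of listed reads that were 5.8S rRNA ran from 19.2% in the 5' polyphosphatase library to 50.2% in the TAP library. A ratio of TAP to untreated is therefore 1.84 times larger per listed read than per 5.8S rRNA read, and a ratio of 5' polyphosphatase to untreated is 0.706 times as large. Ratios carry 95% intervals from the read counts. The reads have no molecular identifiers, so the intervals cover counting error only, and they compare libraries, not treatments. A name with 0 reads in a library was set at 3 reads to give a bound, which is 2.43 to 14.4 RPM in these libraries.

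Long-arm tRNAs took a larger part of the tRNA reads in spermatogonia than in testis when all names were summed. A single leucine name held most of the long-arm reads in spermatogonia. Long-arm tRNAs had 361 of 14147 tRNA reads in the untreated library, 1214 of 19840 after TAP and 810 of 17984 after 5' polyphosphatase. These are shares of 2.55%, 6.12% and 4.50%. In spermatogonia they had 14202 of 75255 and 26066 of 70795 tRNA reads, or 18.9% and 36.8%, with Wilson 95% intervals of 18.6 to 19.2% and 36.5 to 37.2%. All 3 testis shares were below both spermatogonia shares. Without tRNA_chr13.trna991-LeuTAA the other 27 names had 2.45%, 4.82% and 2.26% of the tRNA reads in the testis libraries and 4.45% and 3.91% in spermatogonia, so the TAP library was then above both spermatogonia libraries. Selenocysteine tRNA alone held 4.02% in the TAP library and 0.00133% and 0.00141% in spermatogonia. Serine tRNA held 0.254%, 0.237% and 0.673% in testis and 3.47% and 2.93% in spermatogonia. The other leucine names held 0.608%, 0.565% and 0.578%, then 0.978% and 0.973%. The shares of serine and of these leucine names were thus higher in spermatogonia than in any testis library. Of the 28 names, 18 had a read in the untreated library, 18 with TAP and 22 with 5' polyphosphatase. In spermatogonia 25 and 26 had a read, and 15 had a read in every library. There were 6 names with no testis read, and these had 0 to 11 reads in a spermatogonia library.

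**Figure D1:**
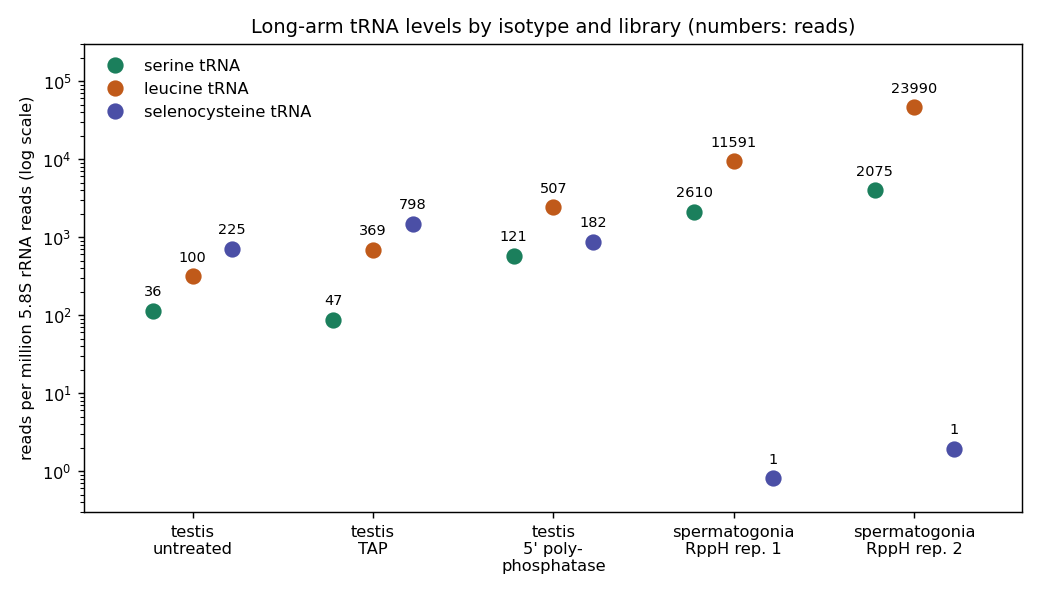
Level of serine, leucine and selenocysteine tRNA in each of the 5 libraries, in RPM on a log axis, with the read count beside each point. Selenocysteine tRNA is the highest of the 3 in the untreated and TAP libraries (225 and 798 reads) and has 1 read in each spermatogonia library, where leucine tRNA is the highest.

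The order of the 3 amino acids differed between the tissues and, within testis, between the treatments. In the untreated testis library the level of selenocysteine tRNA was 712 RPM, that of leucine tRNA 316 RPM and that of serine tRNA 114 RPM. After TAP they were 1489, 688 and 87.7 RPM in the same order, and after 5' polyphosphatase 875, 2438 and 582 RPM. In spermatogonia, leucine tRNA stood at 9371 and 46528 RPM, serine tRNA at 2110 and 4024 RPM, and selenocysteine tRNA at 0.808 and 1.94 RPM. Over the 2 replicates the means were 27949 ± 26274 RPM for leucine, 3067 ± 1354 RPM for serine and 1.37 ± 0.800 RPM for selenocysteine (SD, n = 2). Leucine and serine were above every testis library in both replicates, and selenocysteine was below every testis library in both.

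**Figure D2:**
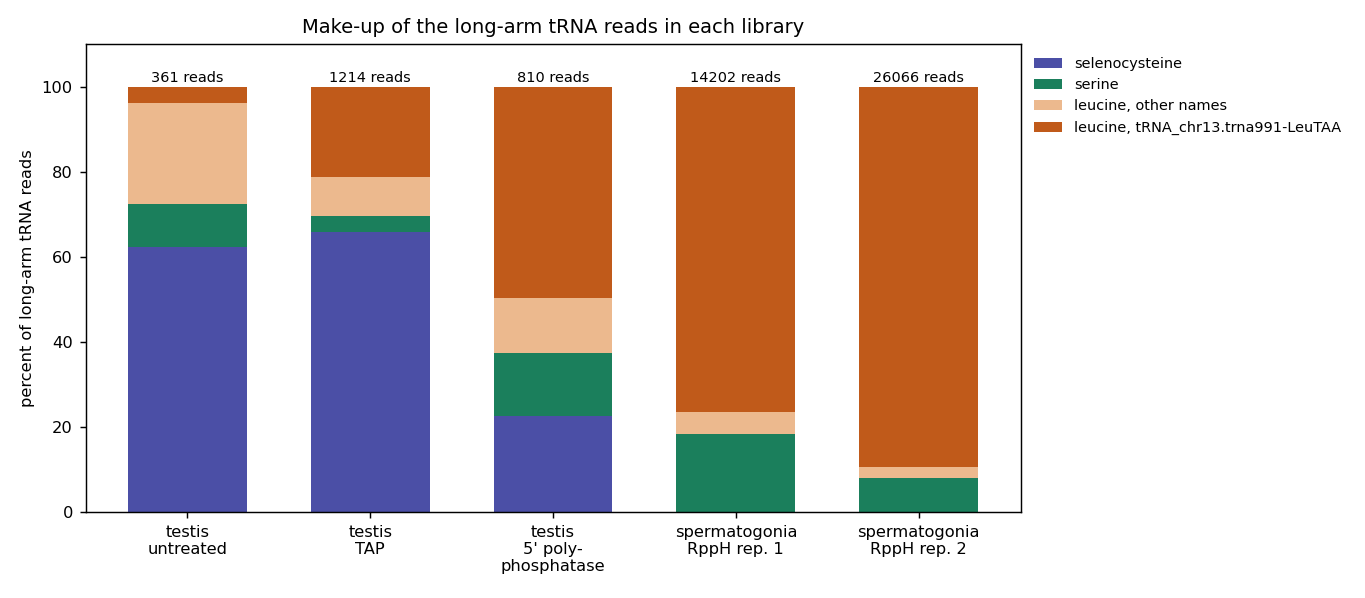
Percent of all long-arm tRNA reads in each library that belong to selenocysteine, serine, tRNA_chr13.trna991-LeuTAA and the other leucine names, with the number of reads above each bar. Selenocysteine makes up 62.3% and 65.7% of the untreated and TAP bars, and tRNA_chr13.trna991-LeuTAA makes up 76.4% and 89.4% of the spermatogonia bars.

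Selenocysteine tRNA made up 62.3% of the long-arm reads in untreated testis, 65.7% after TAP and 22.5% after 5' polyphosphatase. In testis all its reads lay under tRNA_chr7.trna86-SeC(e)TCA, which had 225, 798 and 182 reads and ranked 7, 3 and 16 among the tRNA names of those libraries. The other name, tRNA_chr5.trna13-SeCTCA, had a single read, in spermatogonia replicate 1. tRNA_chr7.trna86-SeC(e)TCA had 0 reads in spermatogonia replicate 1 and 1 read in replicate 2. The first of these allows up to 2.43 RPM. The name therefore was in use in the spermatogonia tables, and its level there was lower than in any testis library by far more than the counting error.

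In every library but the untreated one, most leucine tRNA reads lay under a single name. tRNA_chr13.trna991-LeuTAA, which RefSeq carries as n-TLtaa2 with 83 bases, had 14 reads in untreated testis, 257 with TAP and 403 with 5' polyphosphatase. In spermatogonia it had 10855 and 23301. Its level was 44.3, 479.5 and 1938 RPM in testis and 8776 and 45191 RPM in spermatogonia. It held 14.0% of the leucine reads in untreated testis and 69.6% and 79.5% after the enzymes, and this share was 93.7% and 97.1% in spermatogonia. Among tRNA names it ranked 33, 10 and 6 in the testis libraries and 3 and 1 in spermatogonia.

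The other 11 leucine names together had 86, 112 and 104 reads in testis and 736 and 689 in spermatogonia. tRNA_chr13.trna952-LeuCAG had 28, 31 and 21 testis reads and 259 and 174 spermatogonia reads. tRNA_chr14.trna188-LeuAAG had 30, 19 and 18 in testis and 64 and 42 in spermatogonia, so its level of 35.4 to 94.9 RPM in testis overlapped its 51.7 and 81.5 RPM in spermatogonia. tRNA_chr11.trna401-LeuTAG had 9, 4 and 12 reads in testis and 181 and 220 in spermatogonia. The other 3 leucine names with at least 100 reads in all were tRNA_chr8.trna414-LeuCAG, tRNA_chr13.trna63-LeuAAG and tRNA_chr7.trna861-LeuTAG, which had 0 to 10 reads in a testis library and 53 to 71 in a spermatogonia library. The 3 leucine TAA names differed: tRNA_chr10.trna1316-LeuTAA had 9, 46 and 13 testis reads and 12 and 10 in spermatogonia, and tRNA_chr19.trna638-LeuTAA had 0, 0 and 14 in testis and 12 and 4 in spermatogonia. These last 2 names were chosen after their values were seen.

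By anticodon, leucine TAA took 23.0% of leucine reads in untreated testis and 82.1% and 84.8% after the enzymes, and 93.9% and 97.2% of those in spermatogonia. Leucine AAG, the anticodon whose A is read as inosine after modification, took 34.0% in untreated testis and 4.14 to 5.15% after the enzymes. Leucine CAG took 29.0% in untreated testis and 10.03% and 6.11% after the enzymes. Leucine TAG took 14.0%, 2.71% and 4.93%. In spermatogonia these 3 anticodons took 1.05%, 2.85% and 2.24% of leucine reads in replicate 1 and 0.517%, 1.02% and 1.28% in replicate 2.

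Serine tRNA reads were spread over more names. tRNA_chr4.trna16-SerAGA, whose sequence is given above, had 5, 6 and 41 reads in untreated, TAP and 5' polyphosphatase testis and 863 and 567 in spermatogonia. tRNA_chr13.trna980-SerAGA had 3, 2 and 8 reads in testis and 470 and 185 in spermatogonia. tRNA_chr13.trna972-SerCGA had 1, 2 and 6 in testis and 501 and 256 in spermatogonia. The 3 serine GCT names with at least 100 reads were tRNA_chr13.trna970-SerGCT (10, 18 and 21 testis reads, 192 and 345 spermatogonia reads), tRNA_chr19.trna711-SerGCT (9, 4 and 24, then 236 and 298) and tRNA_chr13.trna976-SerGCT (1, 2 and 5, then 243 and 292). tRNA_chr13.trna984-SerTGA had 0, 5 and 6 reads in testis and 80 and 93 in spermatogonia. For each of these 7 names the level in RPM was higher in both spermatogonia libraries than in any testis library. All 7 reached 100 reads only through the spermatogonia libraries, so this direction follows in part from how they were chosen.

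By anticodon, serine GCT held most serine reads in untreated testis, with 26 of 36 reads or 72.2% (Wilson 95% interval 56.0 to 84.2%), and 61.7% and 45.5% after the enzymes. Serine AGA held 22.2% in untreated testis, 17.0% after TAP and 40.5% after 5' polyphosphatase. Serine CGA and serine TGA held at most 10.6% each in testis. In spermatogonia replicate 1, serine AGA held 51.1% and serine GCT 26.3%, and in replicate 2 serine AGA held 36.3% and serine GCT 46.4%, so the replicates put the 2 in opposite order. The reads of serine AGA relative to serine GCT in replicate 2 were 0.402 times those in replicate 1 (95% interval 0.352 to 0.459). Serine CGA held 19.5% and 12.7%, and serine TGA 3.14% and 4.58%.

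Of the 28 long-arm names, 9 are on chromosome 13, which holds a large cluster of tRNA genes. They had 16.9% of the long-arm reads in untreated testis and 26.1% and 58.4% after the enzymes, and 89.1% and 94.8% of those in spermatogonia. tRNA_chr13.trna991-LeuTAA had 14 of the 61 chromosome 13 reads in untreated testis and 10855 of 12657 in spermatogonia replicate 1.

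The enzyme treatments ask which RNAs carry a 5' end that an adaptor cannot join until it is cut to a monophosphate. Per 5.8S rRNA read, serine tRNA in the TAP library was 0.770 times the untreated level (95% interval 0.499 to 1.19), while per listed read it was 1.42 times (0.920 to 2.19), and neither interval excludes 1. In the 5' polyphosphatase library serine tRNA was 5.11 times the untreated level (3.52 to 7.41), and 3.61 times per listed read. Leucine tRNA was 2.18 times after TAP (1.74 to 2.71) and 7.71 times after 5' polyphosphatase (6.22 to 9.55), or 4.01 and 5.44 times per listed read. Selenocysteine tRNA was 2.09 times after TAP (1.80 to 2.43) and 1.23 times after 5' polyphosphatase (1.01 to 1.49). Per listed read it was 3.86 times after TAP and 0.868 times after 5' polyphosphatase (0.714 to 1.06), so for the second enzyme the direction depends on the reference.

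**Figure D3:**
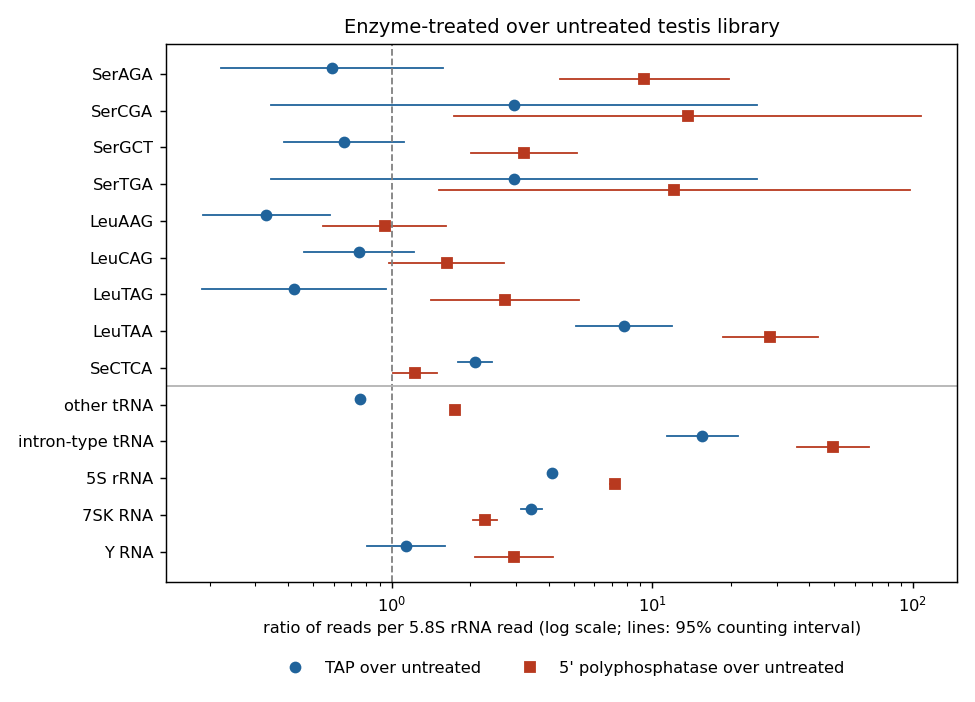
Ratio of the TAP library (circles) and the 5' polyphosphatase library (squares) to the untreated testis library for each long-arm anticodon and, under the grey line, for comparison RNAs, per 5.8S rRNA read on a log axis with 95% counting intervals. SeCTCA and 7SK RNA have the TAP point to the right of the 5' polyphosphatase point, and LeuTAA lies at 7.77 and 28.4, right of the other leucine anticodons.

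Comparing amino acids within the same libraries removes the reference altogether. The 5' polyphosphatase ratio of serine was 4.16 times that of selenocysteine (2.73 to 6.33) and that of leucine 6.27 times (4.69 to 8.38). With TAP the order was different: the serine ratio was 0.368 times that of selenocysteine (0.233 to 0.582), and the leucine ratio was 1.04 times (0.797 to 1.36), which the counts do not tell apart from 1. Set directly against each other, the TAP library over the 5' polyphosphatase library gave 1.70 for selenocysteine (1.45 to 2.00), 0.282 for leucine (0.247 to 0.323) and 0.151 for serine (0.108 to 0.211) per 5.8S rRNA read. Per listed read these became 4.44, 0.737 and 0.393. Selenocysteine was the 1 amino acid of the 3 with more in the TAP library on both scales. These contrasts were chosen after the ratios were seen.

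RNAs of RNA polymerase III that keep a triphosphate or its methylated form give a scale for these ratios. 5S rRNA was 4.14 times the untreated level after TAP and 7.18 times after 5' polyphosphatase. 7SK RNA was 3.44 and 2.29 times, U6 snRNA 1.27 and 3.55 times, and Y RNAs 1.13 and 2.95 times. Like selenocysteine tRNA, 7SK RNA had more reads per 5.8S rRNA read with TAP than with 5' polyphosphatase, and the selenocysteine value of TAP over 5' polyphosphatase was 1.13 times that of 7SK (0.947 to 1.35), which the counts do not tell apart from 1. Each enzyme on its own set them apart, since the selenocysteine ratio to untreated was 0.608 times that of 7SK with TAP (0.512 to 0.723) and 0.538 times with 5' polyphosphatase (0.431 to 0.672). Against 5S rRNA the TAP over 5' polyphosphatase value was 2.95 times as large (2.51 to 3.47). The 161 small nucleolar RNA names, mostly processed RNAs with a monophosphate, summed to 0.126 and 1.55 times the untreated level. They made up 69.7% of listed reads in the untreated library, 16.1% with TAP and 76.1% with 5' polyphosphatase. The listed-read reference thus differed in make-up between these libraries, and why was not tested.

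The leucine ratios rested on tRNA_chr13.trna991-LeuTAA. This name was 10.8 times the untreated level after TAP (6.32 to 18.5) and 43.8 times after 5' polyphosphatase (25.7 to 74.5), from 14 untreated reads. Without it, the other leucine names were 0.768 times after TAP (0.580 to 1.02) and 1.84 times after 5' polyphosphatase (1.38 to 2.45), an alternative added after seeing the data. The tRNA names that are neither long-arm nor of an intron type were 0.754 and 1.76 times in sum. The leucine names without tRNA_chr13.trna991-LeuTAA had 1.02 times their TAP ratio (0.769 to 1.35) and 1.05 times their 5' polyphosphatase ratio (0.786 to 1.39). tRNA_chr13.trna991-LeuTAA had 14.1 times the TAP ratio of the other leucine names (7.68 to 25.9) and 23.8 times their 5' polyphosphatase ratio (13.004 to 43.6).

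Intron-type tRNAs, the tyrosine, leucine CAA, isoleucine TAT and arginine TCT names, gain an intron's length before splicing. They were 15.6 times the untreated level after TAP and 49.4 times after 5' polyphosphatase. Relative to them, tRNA_chr13.trna991-LeuTAA had 0.695 times the TAP ratio (0.372 to 1.30) and 0.885 times the 5' polyphosphatase ratio (0.477 to 1.64), which the counts do not tell apart from 1. The value of TAP over 5' polyphosphatase did differ, at 0.785 times that of the intron-type names (0.658 to 0.936). The 4 leucine CAA names were 2.36 and 3.80 times, from 6, 24 and 15 reads.

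By anticodon, the leucine values after TAP were 7.77 for TAA, 0.752 for CAG, 0.421 for TAG and 0.330 for AAG. After 5' polyphosphatase they were 28.4 for TAA, 2.71 for TAG, 1.62 for CAG and 0.939 for AAG. The intervals of leucine TAA did not overlap those of the other 3. Serine AGA was 0.590 times after TAP (0.221 to 1.57) and 9.31 times after 5' polyphosphatase (4.41 to 19.7), and serine GCT 0.658 (0.387 to 1.12) and 3.22 times (2.02 to 5.13). The 5' polyphosphatase ratio of serine AGA was 2.90 times that of serine GCT (1.20 to 6.99). Serine CGA and serine TGA had 1 read each in the untreated library, so their ratios of 2.95 after TAP, and 13.7 and 12.2 after 5' polyphosphatase, have intervals that reach from 1.73 to 108 and from 1.52 to 97.2 for the second enzyme.

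Counted by name, few long-arm names had the 20 reads over the libraries compared that were asked for a call, which here means at least 2-fold higher or lower per 5.8S rRNA read and carries no test. A name can reach 20 reads through the library where it is high, which sets its direction, so the counts are a description and nothing is read from them. For TAP over untreated, 3 of the 6 names counted were higher, against 26.0% of all 254 names, and 1 was lower, against 50.8%. The 3 were tRNA_chr13.trna991-LeuTAA, tRNA_chr7.trna86-SeC(e)TCA and tRNA_chr10.trna1316-LeuTAA (3.01 times, 1.48 to 6.16), and the lower name was tRNA_chr14.trna188-LeuAAG (0.374 times, 0.210 to 0.664). Per listed read 3 of 6 were higher and 0 lower, against 33.9% and 36.6% of all names. Of the 3 names with 20 reads in the untreated library alone, a limit set after seeing the data, 1 was higher, against 12.2% of all names, and 1 was lower, against 65.6%. The other 3 reached the limit through the TAP library, and 2 of them were among the higher names.

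For 5' polyphosphatase over untreated, 6 of 9 names were higher, against 37.2% of all 253 names, and 0 were lower, against 3.16%. All 6 had under 20 untreated reads and reached the limit through the 5' polyphosphatase library. The 6 were tRNA_chr13.trna991-LeuTAA, tRNA_chr4.trna16-SerAGA (12.5 times, 4.92 to 31.5), tRNA_chr19.trna711-SerGCT (4.05 times, 1.88 to 8.72), tRNA_chr13.trna970-SerGCT (3.19 times, 1.50 to 6.78), tRNA_chr10.trna1316-LeuTAA (2.20 times, 0.938 to 5.14) and tRNA_chr11.trna401-LeuTAG (2.03 times, 0.854 to 4.81). The last 2 intervals include 1. Per listed read 4 of 9 were higher and 0 lower, against 25.3% and 5.53% of all names. Of the 3 names with 20 reads in the untreated library alone, 0 were higher and 0 lower per 5.8S rRNA read, against 25.4% and 4.23% of all names.

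Spermatogonia were set against the TAP library of testis, since RppH and TAP both act on caps and triphosphates. In bulk RNA, fewer cells of a type and less RNA per cell cannot be told apart. Serine tRNA was 24.1 and 45.9 times the testis TAP level in replicates 1 and 2, a mean of 35.0 ± 15.4 (SD, n = 2). Leucine tRNA was 13.6 and 67.6 times, a mean of 40.6 ± 38.2. Selenocysteine tRNA was 0.000543 times (95% interval 7.64e-05 to 0.00386) and 0.00130 times (0.000183 to 0.00926), from 1 read in each replicate and 798 in testis. Against the 5' polyphosphatase library instead, serine was 3.63 and 6.92 times, leucine 3.84 and 19.1 times, and selenocysteine 0.000924 and 0.00222 times. The directions were the same against both testis libraries, while the ratios of serine and leucine were smaller against the second.

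The other tRNA names without an intron type were 1.46 and 2.50 times the testis TAP level, but 0.627 and 1.08 times the 5' polyphosphatase level, so their direction in replicate 1 depends on the testis library. Relative to them, the ratio of serine was 16.5 times as large in replicate 1 (12.3 to 22.0) and 18.3 times in replicate 2 (13.7 to 24.5). That of leucine was 9.32 times (8.39 to 10.3) and 27.0 times (24.3 to 30.0). With the 5' polyphosphatase library as the testis level these were 5.78 and 6.43 times for serine and 6.13 and 17.7 times for leucine. The selenocysteine ratio, relative to the same names, was 0.000372 times (5.23e-05 to 0.00264) and 0.000520 times (7.32e-05 to 0.00370) with the TAP library as the testis level. It was 0.00147 and 0.00206 times with the 5' polyphosphatase library. Leucine names without tRNA_chr13.trna991-LeuTAA were 2.85 and 6.40 times the testis TAP level but 1.19 (0.969 to 1.46) and 2.67 times the 5' polyphosphatase level. They had 1.95 times (1.60 to 2.38) and 2.55 times (2.09 to 3.12) the TAP-based ratio of the other tRNA names. The ratio of tRNA_chr13.trna991-LeuTAA to the TAP level was 24.5 times (21.2 to 28.3) and 39.7 times (34.5 to 45.8) that of the intron-type names. U6 snRNA was 57.0 and 138 times the TAP level and 20.4 and 49.6 times the 5' polyphosphatase level. Y RNAs were 1.65 and 3.49 times the TAP level but 0.632 and 1.34 times the 5' polyphosphatase level, and 5S rRNA was 0.383 and 1.63 times the TAP level and 0.221 and 0.943 times the other. 7SK RNA was not compared, because its testis name occurs in neither spermatogonia table.

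**Figure D4:**
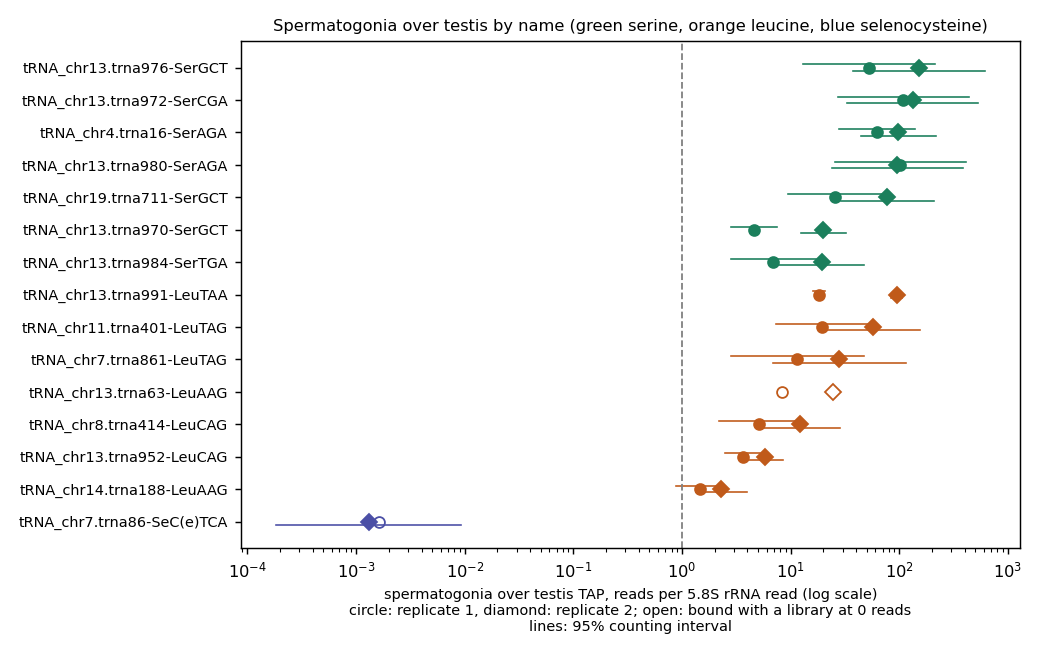
Ratio of each spermatogonia replicate to the testis TAP library for the 15 names with at least 100 reads in all, per 5.8S rRNA read on a log axis (circle replicate 1, diamond replicate 2, open symbols bounds with a library at 0 reads, lines 95% counting intervals). The 14 serine and leucine names are plotted from 1.46 to 152, and 12 of the 15 names had under 20 TAP reads and reached 100 through the other libraries, so their place right of 1 follows in part from how they were chosen. tRNA_chr7.trna86-SeC(e)TCA lies near 0.001.

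Counted by name, 14 of the 18 long-arm names with 20 reads were at least 2-fold higher in both replicates, against 56.7% of all 480 names, and 2 were lower in both, against 16.0%. Per listed read the counts were also 14 and 2, against 46.7% and 19.8%. The 14 held 7 of 8 serine names and 7 of 9 leucine names. The lower names were tRNA_chr7.trna86-SeC(e)TCA, at most 0.00163 times in replicate 1, and tRNA_chr10.trna1316-LeuTAA at 0.113 times (0.0599 to 0.213) and 0.226 times (0.114 to 0.448). Of the 18, 14 had under 20 TAP reads and reached the limit through spermatogonia, and 12 of these were among the higher names. Of the 4 names with 20 reads in the TAP library alone, a limit set after seeing the data, 2 were higher, against 33.0% of all names, and 2 were lower, against 33.5%.

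The highest single ratios belonged to serine names with 2 reads in the TAP library, and their intervals are wide. tRNA_chr13.trna972-SerCGA was 109 and 133 times the TAP level (27.1 to 435 and 33.1 to 535), tRNA_chr13.trna980-SerAGA 102 and 96.2 times, and tRNA_chr13.trna976-SerGCT 52.7 and 152 times. tRNA_chr4.trna16-SerAGA was 62.3 and 98.2 times (27.9 to 139 and 43.9 to 220). tRNA_chr13.trna991-LeuTAA, with 257 TAP reads, was 18.3 times (16.2 to 20.7) and 94.3 times (83.3 to 107). The lowest among the leucine names with at least 100 reads was tRNA_chr14.trna188-LeuAAG, at 1.46 times (0.875 to 2.44) and 2.30 times (1.34 to 3.95).

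By anticodon, serine AGA was 72.2 and 97.9 times the TAP level, serine CGA 44.1 and 54.9 times, serine GCT 10.3 and 34.5 times, and serine TGA 7.11 and 19.8 times. Leucine TAA was 15.6 and 80.0 times, leucine TAG 11.3 and 31.8 times, leucine CAG 3.86 and 6.88 times and leucine AAG 2.78 and 6.78 times. The ratio of serine AGA was 7.04 times (3.20 to 15.5) and 2.83 times (1.29 to 6.24) that of serine GCT, but with the 5' polyphosphatase library as the testis level it was 2.18 times (1.47 to 3.24) and 0.878 times (0.590 to 1.30), so the order of the 2 in replicate 2 depends on the testis library. The ratio of leucine TAA was 5.59 times (3.40 to 9.19) and 11.8 times (7.18 to 19.4) that of leucine AAG. Leucine CAA, not counted as long-arm here, was 2.82 and 7.71 times.

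The 2 spermatogonia replicates differed from each other by more than counting error. Replicate 2 over replicate 1 was formed for the 15 long-arm names with at least 20 reads in each, and it ran from 0.944 for tRNA_chr13.trna980-SerAGA to 5.15 for tRNA_chr13.trna991-LeuTAA per 5.8S rRNA read. Leucine tRNA in replicate 2 was 4.97 times that in replicate 1 (4.86 to 5.08), and serine tRNA 1.91 times (1.80 to 2.02). Per listed read these were 3.29 and 1.26 times. Over 112 tRNA names tRNA_chr13.trna991-LeuTAA had the rank 5 in this ratio, and the median of those names was 2.05. The share of listed reads that were 5.8S rRNA was 39.1% in replicate 1 and 25.9% in replicate 2. A ratio of replicate 2 to replicate 1 is therefore 0.662 times as large per listed read as per 5.8S rRNA read. Why that share differed was not tested.

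The reads of tRNA_chr7.trna86-SeC(e)TCA and tRNA_chr13.trna991-LeuTAA were set side by side, and this ratio needs no reference RNA. There were 16.1 reads of tRNA_chr7.trna86-SeC(e)TCA for each read of tRNA_chr13.trna991-LeuTAA in untreated testis, 3.11 with TAP and 0.452 with 5' polyphosphatase. The spermatogonia libraries gave 0 in replicate 1 and 4.29e-05 in replicate 2, from 1 read against 23301. tRNA_chr7.trna86-SeC(e)TCA had the more reads of the 2 in the untreated and TAP libraries, and tRNA_chr13.trna991-LeuTAA in the other 3. The order changed with the enzyme within testis, so it does not give the abundance of the RNAs.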

How the data were processed

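The 5 libraries were 1 testis library for each of 3 RNA treatments and 2 spermatogonia replicates. The authors trimmed adaptors with Cutadapt, kept reads that held the adaptor, and assigned them with RepeatMasker to repeat and RNA names; tool versions, the tRNA library and a genome build are not given in the sources used here. The deposited tables hold whole-number read counts per name, 1 table a library, not normalized. A total line and lines with no count were left out, the class that spermatogonia tables append to a name was removed, and every tRNA_ name was sorted by amino acid and anticodon. Columns of per-sample values left unused numbered 0.

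Counts were divided by the reads of 5.8S rRNA, or by all listed reads, with Python 3.11.15. With 1 library a testis treatment no model was fitted and no p-value is given. Ratios have 95% intervals from the log ratio, with a variance equal to the sum of reciprocal counts; shares have Wilson intervals; spermatogonia are mean ± SD, n = 2. Calls needed 20 reads over the libraries compared and a 2-fold difference, in both replicates for spermatogonia; a count of 0 was set at 3 reads for a bound, and no fold is given where both counts are 3 or fewer. Every amino acid and anticodon is given, and every name with at least 100 reads in all. The members and lists were chosen with earlier results of these data known. The comparison RNAs were other tRNAs, intron-type tRNAs, 5S rRNA, U6, 7SK, Y RNAs and small nucleolar RNAs. Alternatives were other denominators, other read minimums, the 5' polyphosphatase library as the testis level, and each replicate left out; a minimum of 20 reads in the reference library alone was added after seeing the data.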

Additional observations from a re-analysis of the deposited data

How the results depend on the processing

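Serine tRNA had 36 to 121 reads in a testis library. Of 56 alternatives, 30 left the value within its own interval or spread, or a count within 1.5 times. This tally overstates stability for spermatogonia, where the spread is the mean ± SD of 2 replicates. Each replicate lies inside that spread by construction, so leaving out a replicate could not move the value outside it. For leucine over testis TAP the spread was 2.43 to 78.8. It also took in 4.62, the value without tRNA_chr13.trna991-LeuTAA. Per listed read, TAP over untreated was 1.42 for serine, 4.01 for leucine and 3.86 for selenocysteine, and per sequenced read 1.24, 3.52 and 3.38. 5' polyphosphatase over untreated was 5.44 for leucine and 0.868 for selenocysteine per listed read, and 5.89 and 0.939 per sequenced read. Per tRNA read, it was 2.64 for serine, 3.99 for leucine and 0.636 for selenocysteine, selenocysteine after TAP was 2.53, and spermatogonia over testis TAP were 13.5 for serine and 0.000341 for selenocysteine. Per 5.8S rRNA read, spermatogonia over the 5' polyphosphatase library were 5.27 for serine and 0.00157 for selenocysteine, against 35.0 and 0.000923 over the TAP library. Without tRNA_chr13.trna991-LeuTAA, chosen after seeing the data, leucine after TAP turned to 0.768 and after 5' polyphosphatase was 1.84. With a minimum of 10 reads, 7 long-arm names were past 2-fold after TAP (4 at 20 reads) and 10 after 5' polyphosphatase (6 at 20 reads), and with 50 reads 1 was past it after 5' polyphosphatase. With 20 reads asked of the reference library alone, chosen after seeing the data, 2 names were past 2-fold after TAP, 0 after 5' polyphosphatase and 4 in spermatogonia (16 at 20 summed reads), out of the 3, 3 and 4 names that then remained. Leaving out a spermatogonia replicate gave 24.1 to 45.9 for serine, 13.6 to 67.6 for leucine, 0.000543 to 0.00130 for selenocysteine and 16 to 18 names past 2-fold. The leucine value in particular rests on which replicate is kept. No paired analysis was possible because each testis treatment has 1 library and the labels number the spermatogonia replicates alone.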
